A study of Homo sapiens with 4 samples.

Results

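The RNA of 9 genes that encode surface antigens of B cells was described, several of them targets of therapeutic antibodies, namely MS4A1, CR2, CD22, CD37, CD52, CD72, CD27, CD38 and CD81. They were chosen by gene symbol, and all 9 were found among the 41507 genes of the deposited gene table. The RNA came from SU-DHL-5 and Toledo, a pair of established human lines of diffuse large B-cell lymphoma whose labels give the cell type as B lymphocyte. Cells received either the vehicle DMSO or 1 µM of JQ1, an inhibitor that keeps BET proteins off acetylated chromatin, and the sample labels give 6 h of exposure. A legend of the study gives a longer time. Paired reads were obtained from stranded mRNA libraries, and the values are RPKM, which are read counts normalized for gene length and library size. The 4 groups were SU-DHL-5 with DMSO, SU-DHL-5 with JQ1, Toledo with DMSO and Toledo with JQ1. Each group held 1 sample with 2 libraries, and the libraries had between 14617583 and 17679831 mapped reads. What separates the libraries of a sample is not given in the sources used here, so there were no replicates and no test across samples was made.

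B cells carry surface proteins that mark their stage and tune the B-cell receptor, and several of these appear or disappear as a cell passes through the germinal center and becomes a memory or plasma cell. CR2 and CD81 help to strengthen the signal of the receptor, whereas CD22 and CD72 carry inhibitory tails that recruit phosphatases and weaken it. CD20, the product of MS4A1, and CD22, CD37, CD38 and CD52 are bound by antibodies or antibody conjugates developed against lymphoid cancers.

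Ratios between samples are log2((a + 0.1)/(b + 0.1)) of the mean RPKM of the libraries, which makes changes of genes with low values look smaller than they are. A gene was tested where its mean reached 1 RPKM in either sample. It was called lower or higher where the ratio was at least 2-fold and both libraries of one sample lay beyond both libraries of the other. Intervals at 95% were taken from the reads behind a ratio by the exact binomial method and cover counting error only. In these bulk samples, fewer cells that carry an RNA and less of that RNA per cell cannot be told apart.

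The B lymphocyte label was checked with 6 markers of B cells, and all of them reached 1 RPKM in a sample. Their summed level was 2717 RPKM with DMSO and 2287 with JQ1 for SU-DHL-5 and 2773 and 2801 for Toledo. CD74, the invariant chain of MHC class II, was the most abundant of them in each sample. BLNK, an adaptor of the B-cell receptor, was the 1 of 6 called lower with JQ1, and this was so in each line. Of all tested genes, 6.28% were called lower with JQ1 in SU-DHL-5 and 8.01% in Toledo. EBF1, a transcription factor of early B cells, was called higher in Toledo than in SU-DHL-5 with DMSO, with a log2 ratio of 2.87. It was the 1 of 6 called between lines, where 16.7% of all tested genes were called higher and 14.2% lower. Markers of other cells stayed low. The 8 T cell markers summed to 1.12, 0.0827, 0.101 and 0 RPKM in SU-DHL-5 with DMSO and JQ1 and in Toledo with DMSO and JQ1, with CD3E the most abundant in SU-DHL-5 and CD2, CD28 and TRAC at 0 in every library. In the same order, 4 NK cell markers summed to 0.0327, 0, 0 and 0.00867 RPKM, with NCR1 at 0 in every library. The 6 myeloid markers summed to 1.87, 1.19, 0.287 and 0.516 RPKM, with LYZ or CD68 highest in 3 of the 4 samples and MPO at 0 in every library. The 4 markers of stroma and epithelium summed to 0.710, 0.241, 2.54 and 0.329 RPKM, mostly from PECAM1 in SU-DHL-5 and COL1A1 in Toledo, with EPCAM and KRT8 at 0 in every library. The part of these RNAs in the results below was not tested.

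The lines also differed in markers of B-cell stage. Of 5 genes of germinal center B cells, 4 were called lower in Toledo than in SU-DHL-5 with DMSO, namely BCL6, MYBL1, LMO2 and S1PR2. Of all tested genes, 14.2% were called lower in this comparison and 16.7% higher. MME, the fifth, lay the other way with a log2 ratio of 0.61 that was not called, both Toledo libraries being above both SU-DHL-5 libraries. All 5 summed to 132.6 RPKM in SU-DHL-5 with DMSO, 108.0 with JQ1, 35.6 in Toledo with DMSO and 21.4 with JQ1, and MME held 20.2, 13.9, 31.0 and 17.2 RPKM of these sums. BCL6, the transcriptional repressor of the germinal center, had a log2 ratio between lines of −3.89. With JQ1, LMO2 was the 1 of these 5 genes called lower in SU-DHL-5, where 6.28% of all tested genes were called lower. In Toledo 3 of the 5 were tested and none was called. Of all tested genes there, 8.01% were called lower and 1.93% higher. S1PR2, not tested in Toledo, had a log2 ratio of −1.88 (interval from −3.07 to −1.68, 22 JQ1 and 117 DMSO reads). LMO2, also not tested there, had 0 RPKM in both DMSO libraries. Of 5 plasma cell markers, 4 were found under their symbol. IRF4 and XBP1 were the 2 tested between lines, and both were called higher in Toledo with DMSO, where 16.7% of all tested genes were. IRF4 had 0.0120 and 0.0111 RPKM in SU-DHL-5 against 44.2 and 53.3 in Toledo, and XBP1 had a log2 ratio of 1.97. The plasma cell list summed to 15.5 RPKM in SU-DHL-5 with DMSO, 6.50 with JQ1, 105.7 in Toledo with DMSO and 87.6 with JQ1. XBP1, a factor of the secretory program, was the 1 gene of the list tested with JQ1 in SU-DHL-5. It was called lower at a log2 ratio of −1.20, where 6.28% of all tested genes were. In Toledo, IRF4 and XBP1 were the 2 tested and neither was called, where 8.01% of all tested genes were called lower. XBP1 had −0.96 there (interval from −1.05 to −0.88), with both JQ1 libraries below both DMSO libraries. IRF4 had 0.26, with both JQ1 libraries above both DMSO libraries. SDC1 and PRDM1, which define plasma cells, stayed at or below 1.01 and 0.320 RPKM in every library. HEXIM1, a known responder to BET inhibition used here to check the treatment labels, had log2 ratios with JQ1 of 2.43 for SU-DHL-5 and 2.57 for Toledo. MYC, another gene often used for this purpose, had −0.29 and 0.03.

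With JQ1 in SU-DHL-5, 5 of the 9 members were called lower, namely CD27, CD72, MS4A1, CD22 and CD52, where 6.28% of the 9316 tested genes were called lower. None was called higher, where 1.84% of genes were. In Toledo, the 4 members called lower were CD72, CD52, MS4A1 and CD22, where 8.01% of the 9646 tested genes were called lower, and none was called higher, where 1.93% of genes were. Counted at any size of ratio, 6 of the 7 tested members had both JQ1 libraries below both DMSO libraries in SU-DHL-5, against 38.5% of tested genes, and none had both above, against 42.1%. In Toledo 6 of 7 tested members lay below, against 43.6%, and CD38 alone of those tested lay above, against 29.5%. The members were chosen with results of these data known, so nothing is read from their number. The 7 tested members of each line, which differ by CD27 and CD38, had a median log2 ratio of −1.47 for SU-DHL-5, where that of all tested genes was 0.02, and of −1.11 for Toledo, where that of all tested genes was −0.07. Over all 9 members, with untested genes of at most 6 reads per sample included, the medians were −1.15 and −0.21. The second of these is the value of CD37, and it was −0.32 with library 1 of each sample alone, −0.11 with library 2 alone, −0.14 when scaled to the median ratio of all genes and −0.08 when centred on genes of like length.

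**Figure D1:**
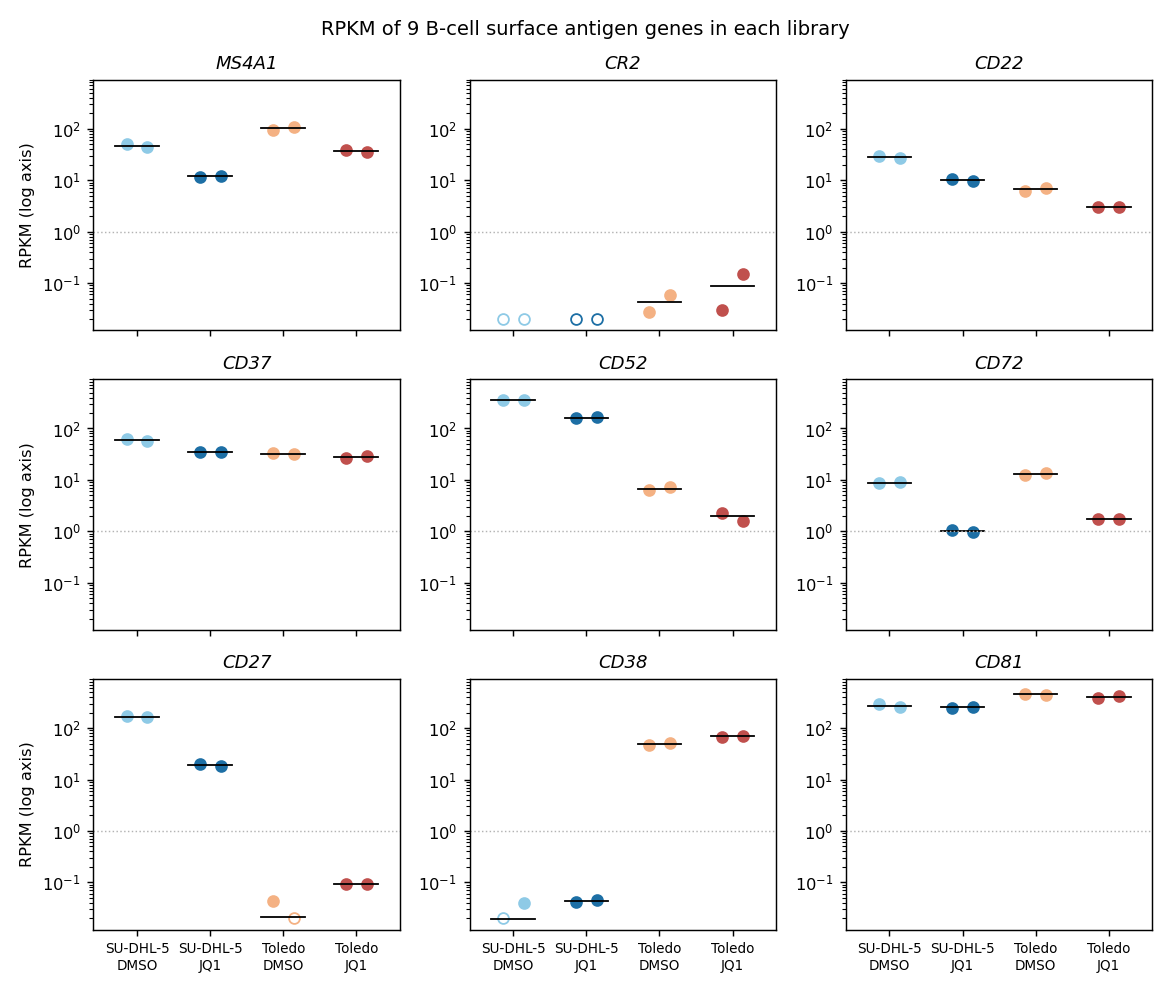
RPKM of each of the 9 genes in each library on a log axis, with 2 points per sample, black lines at the mean of each sample, open points for libraries at 0 drawn at the foot of the axis, and a dotted line at 1 RPKM. CD81 has at least 251.4 RPKM in all 8 libraries, while CD27 and CD52 are high in SU-DHL-5 and CD38 is high in Toledo alone.

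**Figure D2:**
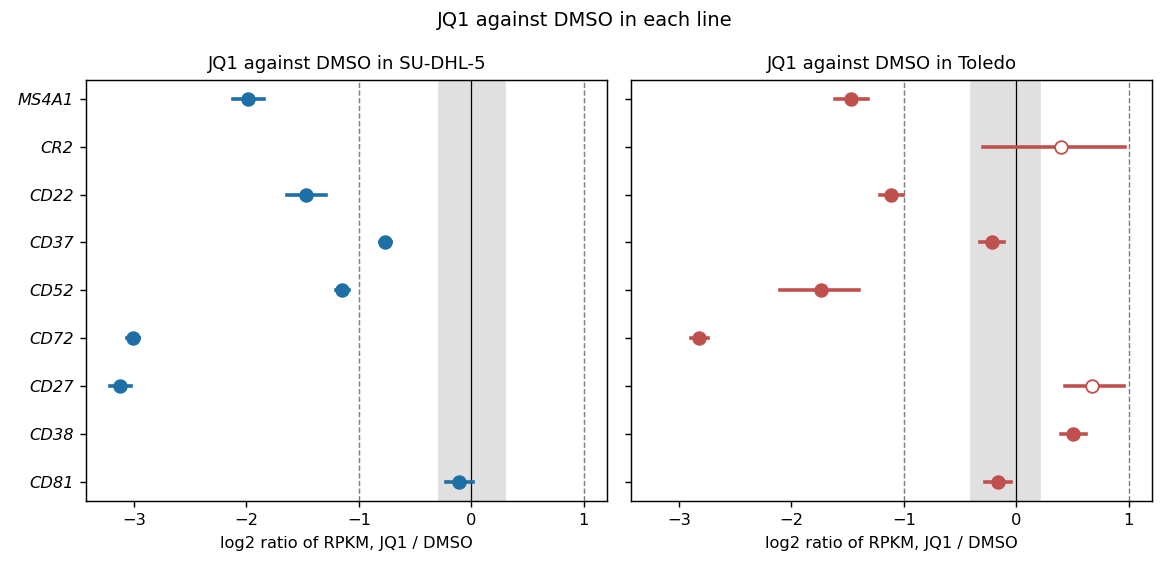
Log2 ratio of RPKM, JQ1 over DMSO, for each gene in SU-DHL-5 and Toledo, with horizontal lines from the lowest to the highest of the 4 library pairings, open points for genes below 1 RPKM, a grey band between the quartiles of all tested genes, and dashed lines at 2-fold. CR2 and CD38 are left out in SU-DHL-5, where they had at most 2 reads per sample, and MS4A1, CD22, CD52 and CD72 lie beyond the lower dashed line in both lines.

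Between the lines with DMSO, 3 members were called lower in Toledo than in SU-DHL-5, namely CD27, CD52 and CD22, where 14.2% of the 10078 tested genes were called lower. CD38 and MS4A1 were the 2 called higher, where 16.7% of genes were. At any size, 4 of the 8 tested members had both Toledo libraries below both SU-DHL-5 libraries, against 41.9% of tested genes, and 4 had both above, against 43.2%. The 8 tested members had a median log2 ratio of −0.17, or −0.08 when centred on genes of like length, and that of all tested genes was 0.00. Over all 9 the median, 0.52, falls on a gene of at most 3 reads per sample, and nothing is read from it.

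In DMSO, the order of mean levels in SU-DHL-5 was CD52, CD81, CD27, CD37, MS4A1, CD22, CD72, CD38 and CR2. In Toledo it was CD81, MS4A1, CD38, CD37, CD72, CD52, CD22, CR2 and CD27. CD52 and CD22 were neighbors in Toledo whose libraries overlapped, as were CR2 and CD27 at the foot of that order, and CD38 and CR2 both had a library at 0 in SU-DHL-5. The libraries of all other neighbors in these orders lay apart. The plot of DMSO levels shows how far CD27, CD52 and CD38 lie from equal levels in the lines.

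**Figure D3:**
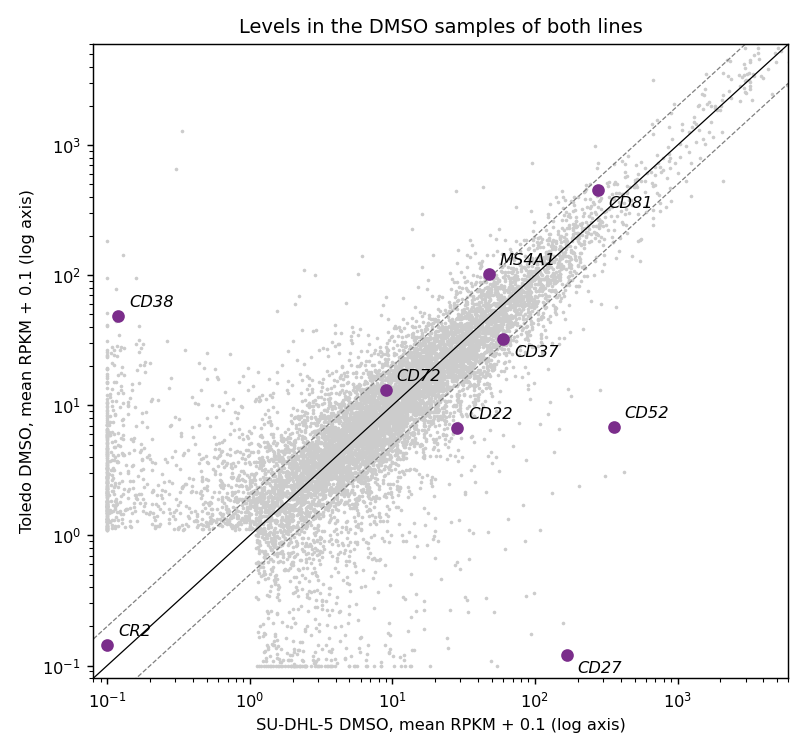
Mean RPKM plus 0.1 in the DMSO samples of SU-DHL-5 (horizontal) and Toledo (vertical) on log axes, with the 9 genes in purple, all other tested genes in grey, a solid line at equal levels and dashed lines at 2-fold. CD52 (356.3 against 6.73 RPKM) and CD27 (167.1 against 0.0214 RPKM) lie far below the line, and CD38 (0.0197 against 48.7 RPKM) lies far above it.

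MS4A1 (chromosome 11, 60455809 to 60470752) encodes CD20, a membrane-spanning protein of B cells and the target of rituximab. It had 51.01 and 43.5 RPKM in the DMSO libraries of SU-DHL-5 and 11.7 and 12.01 in its JQ1 libraries. In Toledo it had 96.7 and 108.7 RPKM with DMSO and 38.6 and 35.4 with JQ1. All JQ1 libraries thus lay below the DMSO libraries of the same line, and the level in Toledo was the higher one in each treatment. The log2 ratio with JQ1 was −1.99 in SU-DHL-5 (interval from −2.08 to −1.91, 1323 JQ1 and 5531 DMSO reads), and 1.61% of tested genes had a lower ratio. In Toledo the ratio was −1.47 (interval from −1.52 to −1.42, 4310 and 12493 reads), with 4.08% of tested genes lower. Relative to DMSO, 25.1% of the RNA level remained with JQ1 for SU-DHL-5 and 36.0% for Toledo. Among genes of at least 1 RPKM, MS4A1 went from rank 1463 to rank 4184 in SU-DHL-5, and in Toledo its rank went from 628 to 1598. Between lines with DMSO the log2 ratio was 1.12 (interval from 1.08 to 1.17), and with library 1 of each sample alone it was 0.92, short of 2-fold. Of the 2 transcripts listed for MS4A1, the shorter held 92.0% and 92.7% of its reads with DMSO and JQ1 for SU-DHL-5 and 94.9% and 93.4% for Toledo.

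MS4A1 belongs to a family of membrane-spanning genes. Of 13 genes of this family listed here, it was the 1 that reached 1 RPKM in a sample. Of the others listed, 7 were at 0 in every library. MS4A7 was the next most abundant, with at most 1.08 RPKM in a library, and MS4A4A had at most 0.583 RPKM. The calls of this list, 1 lower with JQ1 in each line and 1 higher in Toledo with DMSO, are those of MS4A1 itself. Lower calls with JQ1 made up 6.28% of all tested genes for SU-DHL-5 and 8.01% for Toledo. Higher calls between lines made up 16.7%.

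CD52 (chromosome 1, 26317920 to 26320523) encodes a short lipid-anchored glycoprotein and is the target of alemtuzumab. Its DMSO libraries had 350.2 and 362.3 RPKM in SU-DHL-5, and its JQ1 libraries had 157.5 and 164.5. Toledo had 6.27 and 7.19 RPKM with DMSO and 2.31 and 1.595 with JQ1. CD52 was the most abundant member in SU-DHL-5 with DMSO, at rank 193 of the 9120 genes with at least 1 RPKM, and at rank 5622 of 9467 in Toledo. Its level with DMSO was 52.2-fold lower in Toledo, a log2 ratio of −5.70 (interval from −6.01 to −5.46), and 58 of the 10078 tested genes had a lower ratio. With JQ1, the ratio was −1.15 in SU-DHL-5 (interval from −1.22 to −1.08, 2526 and 5884 reads). Toledo had −1.73 on few reads (interval from −2.39 to −1.20, 32 and 115 reads), and its JQ1 libraries differed by 0.51 on the log2 scale, the widest gap of a member of at least 1 RPKM in any sample. The pairings of libraries in Toledo, from −2.11 to −1.40, lay below those in SU-DHL-5, from −1.20 to −1.09. The gene overlaps UBXN11, whose RPKM values were 10.6 and 8.81 with DMSO and 5.32 and 5.74 with JQ1 in SU-DHL-5, and 4.34 and 3.51 with DMSO and 1.78 and 1.64 with JQ1 in Toledo. The strand used in counting is not given in the sources used here, and the share of reads that the genes may exchange was not tested.

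CD22 (chromosome 19, 35329166 to 35347361) encodes an inhibitory receptor that binds sialic acids. Its libraries had 30.2 and 26.6 RPKM with DMSO and 10.8 and 9.63 with JQ1 in SU-DHL-5. In Toledo the values were 6.16 and 7.08 with DMSO and 3.02 and 2.99 with JQ1, so that every Toledo library lay below every SU-DHL-5 library. The log2 ratio with JQ1 was −1.47 in SU-DHL-5 (interval from −1.57 to −1.37, 1050 and 3049 reads). It was −1.11 in Toledo (interval from −1.33 to −0.94, 321 and 738 reads), and the call there was lost with 1 RPKM added in place of 0.1 and with ratios centred on genes of like length. In DMSO, CD22 was 4.24-fold lower in Toledo, a log2 ratio of −2.08 (interval from −2.22 to −1.98).

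CD72 (chromosome 9, 35609979 to 35618865) encodes a lectin-like inhibitory receptor of B cells. In SU-DHL-5 it had 8.84 and 8.91 RPKM with DMSO and 1.05 and 0.982 with JQ1. In Toledo it had 12.4 and 13.6 RPKM with DMSO and 1.77 and 1.74 with JQ1. The JQ1 libraries were thus close to 1 RPKM in each line, and CD72 moved from rank 4848 to 8933 of the 8949 genes of at least 1 RPKM in SU-DHL-5, and in Toledo from 3903 to 8399 of 9157. The log2 ratio with JQ1 was −3.01 in SU-DHL-5 (interval from −3.56 to −2.71, 53 and 485 reads), and 36 tested genes had a lower one. In Toledo it was −2.82 (interval from −3.21 to −2.58, 95 and 737 reads), and 70 tested genes had a lower one. With 1 RPKM added in place of 0.1, these ratios were −2.29 and −2.35. In DMSO the ratio between lines was 0.55 (interval from 0.38 to 0.72), which was not called although both Toledo libraries were above both SU-DHL-5 libraries. CD72 overlaps TESK1, which had 21.9 and 16.9 RPKM with DMSO and 19.6 and 20.6 with JQ1 in SU-DHL-5, and 11.9 and 12.8 with DMSO and 12.7 and 12.8 with JQ1 in Toledo. Of the 4 transcripts listed for CD72, the longest held 189 and 222 reads with DMSO and 20 and 0 with JQ1 in SU-DHL-5, so the split between transcripts was not stable at this depth and is not compared.

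Inhibitory receptors with immunoreceptor tyrosine-based inhibitory motifs and the phosphatases they recruit formed a list of 13 genes that includes CD22 and CD72. With JQ1, 6 of 7 tested genes were called lower in SU-DHL-5 and 6 of 8 in Toledo, against 6.28% and 8.01% of all tested genes. None was called higher in either, against 1.84% and 1.93%. The genes called lower in both lines were 5, namely CD22, CD72, FCGR2B, SIGLEC10 and PTPN6. The median log2 ratio of the tested genes was −1.47 for SU-DHL-5 and −1.86 for Toledo. Over all 13, with genes at or near 0 reads included, it was −1.10 and −0.75. PTPN6, which encodes the phosphatase SHP-1 that CD22 and CD72 recruit, had 121.8 and 103.3 RPKM with DMSO and 27.7 and 29.6 with JQ1 in SU-DHL-5. In Toledo it had 25.2 and 25.8 with DMSO and 4.38 and 3.99 with JQ1. Its log2 ratios with JQ1 were −1.97 (interval from −2.04 to −1.91) and −2.58 (interval from −2.77 to −2.44). SIGLEC10, another sialic acid receptor, had −2.83 for SU-DHL-5 and −2.51 for Toledo, and FCGR2B, the inhibitory Fc receptor, had −1.46 and −1.65. INPP5D, which encodes the lipid phosphatase SHIP-1, was called lower in SU-DHL-5 with −1.10 and had −0.75 in Toledo. LAIR1, a collagen receptor, was called lower in Toledo with −2.07 and had at most 0.0379 RPKM in a library of SU-DHL-5. PTPN11, the gene of the phosphatase SHP-2, had 0.36 and 0.05 and was not called. Between lines with DMSO, CD22, SIGLEC10 and PTPN6 were the 3 called lower in Toledo and LAIR1 the 1 called higher, of 8 tested. These calls were made for 14.2% and 16.7% of all tested genes.

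Enzymes that make or edit the sialic acid ligands of CD22 formed a list of 7 genes. None of the 5 tested in each line was called with JQ1 in either direction, and their median log2 ratio was 0.01 for SU-DHL-5 and −0.07 for Toledo. Of all tested genes, lower calls made up 6.28% for SU-DHL-5 and 8.01% for Toledo, and higher calls 1.84% and 1.93%. ST6GAL1, the transferase that builds the preferred ligand of CD22, had log2 ratios of −0.76 and −0.07. Both its JQ1 libraries lay below both DMSO libraries in SU-DHL-5. NANS, a synthase of sialic acid, had −0.04 and 0.49, and CMAS, which activates sialic acid for transfer, had 0.01 and −0.33. In DMSO, ST6GAL1 and NANS were the 2 called lower in Toledo, with −1.34 and −1.21, where 14.2% of all tested genes were called lower. None was called higher, where 16.7% of all tested genes were.

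Promoter windows were read for members called lower with JQ1 in both lines, because these genes moved together, and are printed for CD22, CD52 and CD72. They come from a table of RefSeq promoters on GRCh38.p14 that holds an entry for 6 of the 9 members and none for MS4A1, CD37 and CD81. Each window holds 200 bases, from 250 to 51 bases before the annotated start, written 5′ to 3′ on the strand of the gene. The coordinates are chr19:35328937-35329136 on the plus strand for CD22, chr1:26317708-26317907 on the plus strand for CD52 and chr9:35618464-35618663 on the minus strand for CD72. Capitals mark GAGGAA, a core bound by ETS factors of the PU.1 type, or its complement on the other strand.
CD22: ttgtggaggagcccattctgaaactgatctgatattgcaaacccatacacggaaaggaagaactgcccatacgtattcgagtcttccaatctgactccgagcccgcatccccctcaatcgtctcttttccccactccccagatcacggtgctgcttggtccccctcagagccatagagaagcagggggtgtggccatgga
CD52: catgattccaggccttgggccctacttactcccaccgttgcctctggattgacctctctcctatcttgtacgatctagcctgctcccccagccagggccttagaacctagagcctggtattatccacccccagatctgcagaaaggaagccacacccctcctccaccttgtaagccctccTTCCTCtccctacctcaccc
CD72: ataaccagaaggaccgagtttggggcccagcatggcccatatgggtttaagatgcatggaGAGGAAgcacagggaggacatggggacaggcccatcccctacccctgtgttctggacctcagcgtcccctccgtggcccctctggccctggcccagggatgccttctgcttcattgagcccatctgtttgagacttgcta

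In these windows, 6 motifs were searched on both strands. GAGGAA was found in CD72, 190 bases before the start, and on the opposite strand in CD52, 70 bases before the start. It occurs in 19.1% of the 35116 windows of the same length. The octamer ATGCAAAT (1.29% of windows), the E-box CACGTG (4.51%), the EBF-type motif CCCNNGGG (13.9%), the IRF-type motif of GAAA and GAAA with any 2 bases between them (2.39%) and the TATA box TATAAA (7.63%) had no match in the 3 windows. CD22 had no match for any of the 6. A match describes the letters of a window and is not evidence of a bound site. The windows leave out the bases nearest the start, so a TATA box or other motif there could not be found. The lack of a match is therefore not read as absence from a promoter, and the shares count matches inside such windows alone. For CD72 the gene table also lists transcripts that begin further upstream, at 35618865, so that its window lies inside the listed gene. Another annotation starts CD22 further upstream, at 35319261, so that the window of CD22 lies inside the gene as given there.

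CD81 (chromosome 11, 2376161 to 2397419) encodes a tetraspanin that organizes other proteins in the cell membrane. Its libraries had 293.6 and 256.0 RPKM with DMSO and 251.4 and 258.5 with JQ1 in SU-DHL-5, which overlap. In Toledo it had 461.7 and 440.9 RPKM with DMSO and 380.8 and 426.0 with JQ1, with both JQ1 libraries below both DMSO libraries. CD81 was the most abundant member in Toledo in each treatment, and 97.2% to 98.3% of the genes of at least 1 RPKM had a lower level in each of the 4 samples. With JQ1 the log2 ratios were −0.11 for SU-DHL-5 and −0.16 for Toledo, neither of them called. Pairings of libraries ran from −0.22 to 0.01 in SU-DHL-5, and centring on genes of like length gave 0.00 in Toledo. Between lines with DMSO the ratio was 0.72 (interval from 0.69 to 0.75), short of 2-fold, with both Toledo libraries above both SU-DHL-5 libraries.

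The table lists 2 transcripts of CD81, chosen for description after their values were seen, and the plot of CD81 transcripts shows that they did not move alike. The transcript that begins upstream, at 2376161, had 44.1 and 49.4 RPKM with DMSO and 14.8 and 17.8 with JQ1 in SU-DHL-5. In Toledo it had 29.6 and 25.8 with DMSO and 8.91 and 6.91 with JQ1. Its log2 ratio with JQ1 was −1.51 in SU-DHL-5 (interval from −1.65 to −1.40) and −1.80 in Toledo (interval from −1.99 to −1.64). The transcript that begins at 2377317 had 291.9 and 244.4 RPKM with DMSO and 270.9 and 276.2 with JQ1 in SU-DHL-5. In Toledo it had 495.3 and 475.2 with DMSO and 422.7 and 475.8 with JQ1, and its log2 ratios were 0.03 and −0.11. The upstream transcript held 13.9% of the CD81 reads with DMSO and 5.17% with JQ1 in SU-DHL-5 (intervals from 13.3% to 14.4% and from 4.80% to 5.56%). In Toledo it held 4.99% and 1.59% (intervals from 4.72% to 5.26% and from 1.43% to 1.76%). How reads shared by transcripts were divided is not given in the sources used here, and these intervals do not cover that step.

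**Figure D4:**
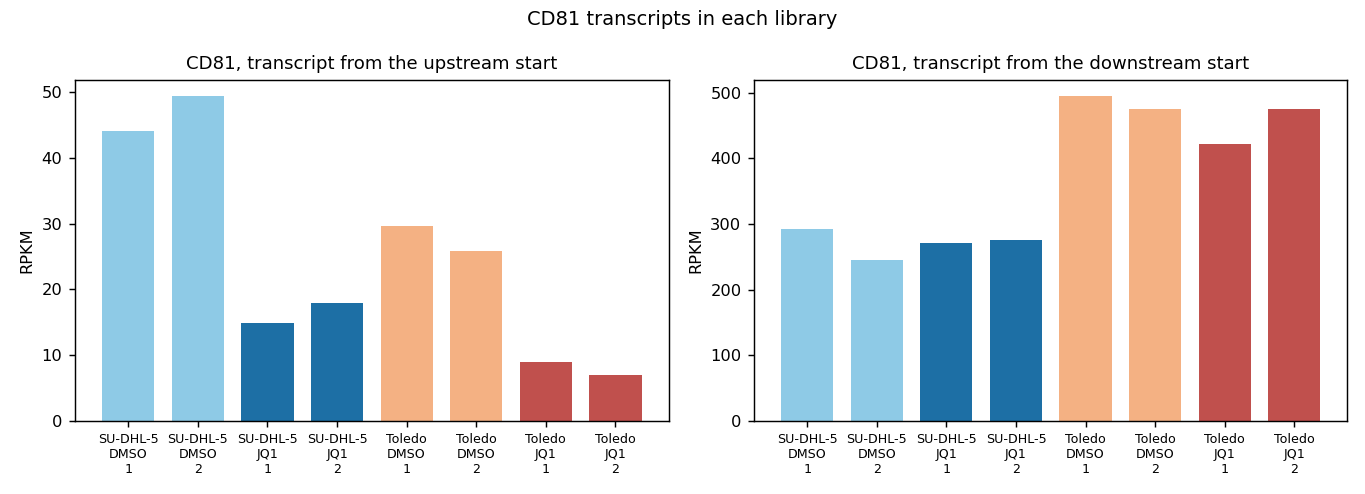
RPKM of the CD81 transcripts in each of the 8 libraries, with bars from 0, the transcript of the upstream start on the left and that of the downstream start on the right, on different vertical scales. The upstream transcript goes from 44.1 and 49.4 RPKM to 14.8 and 17.8 for SU-DHL-5, and from 29.6 and 25.8 RPKM to 8.91 and 6.91 for Toledo, while the downstream one lies between 244.4 and 495.3 RPKM in all libraries.

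CR2 (chromosome 1, 207454300 to 207489895) encodes CD21, a receptor for complement fragments. It had 0 reads in all SU-DHL-5 libraries, which allows up to 3 reads per sample. Toledo had 0.0271 and 0.0591 RPKM with DMSO and 0.0295 and 0.149 with JQ1, from 3 and 6 reads in all. CR2 was therefore at the limit of detection in each sample, and its ratio of reads with JQ1 in Toledo, 1.07 on the log2 scale, had an interval from −1.16 to 3.69. No fold of CR2 is described where both samples were at or under 3 reads, as in SU-DHL-5 and between the lines.

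A list of 3 genes joins CD81 and CR2 with IFITM1, a small membrane protein that associates with CD81. Of 2 tested genes, IFITM1 was the 1 called lower with JQ1 in each line, and none was called higher. For SU-DHL-5, 6.28% of all tested genes were called lower with JQ1 and 1.84% higher. For Toledo these shares were 8.01% and 1.93%. IFITM1 had 3.46 and 3.86 RPKM with DMSO and 0.338 and 0.382 with JQ1 in SU-DHL-5. Its Toledo libraries had 30.3 and 30.7 RPKM with DMSO and 3.26 and 3.37 with JQ1. Its log2 ratios with JQ1 were −3.03 on few reads (interval from −4.61 to −2.31, 8 and 86 reads) and −3.16 (interval from −3.56 to −2.86), while those of CD81 were near 0. In DMSO, IFITM1 was the 1 gene of the list called higher in Toledo, with a log2 ratio of 3.02, and none was called lower. Among all tested genes, 16.7% were called higher there and 14.2% lower.

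CD37 (chromosome 19, 49335418 to 49340606) encodes a tetraspanin of mature B cells. In SU-DHL-5 it had 61.6 and 58.0 RPKM with DMSO and 35.0 and 35.2 with JQ1, and in Toledo 32.8 and 31.5 with DMSO and 26.2 and 29.2 with JQ1. The JQ1 libraries lay below the DMSO libraries in each line without reaching 2-fold. The log2 ratio was −0.77 in SU-DHL-5 (interval from −0.85 to −0.68, 1766 and 3156 reads) and −0.21 in Toledo (interval from −0.32 to −0.12, 1450 and 1764 reads). Of the tested genes, 9.02% had a lower ratio in SU-DHL-5 and 37.7% in Toledo. Between lines with DMSO the ratio was −0.89 (interval from −0.98 to −0.81), also under 2-fold. Of 5 transcripts listed for CD37, 1 held 72.3% and 79.4% of the reads with DMSO and JQ1 for SU-DHL-5 and 72.2% and 78.8% for Toledo.

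Among 28 tetraspanins, the list of CD37 and CD81, JQ1 was followed by 4 lower calls in SU-DHL-5 (CD82, TSPAN4, TSPAN17 and TSPAN18) and 1 higher call (TSPAN31), of 14 tested genes. Of all tested genes in SU-DHL-5, 6.28% were called lower and 1.84% higher. In Toledo, CD151 and TSPAN4 were the 2 called lower and none was called higher, of 15 tested. There, 8.01% of all tested genes were called lower and 1.93% higher. Both lines shared 1 lower call, TSPAN4. Tested tetraspanins had a median log2 ratio of −0.63 for SU-DHL-5 and −0.21 for Toledo, and all 28, with genes at or near 0 reads included, had −0.22 and −0.15. CD53, a tetraspanin of white blood cells, had −0.83 and −0.59, and CD63, a tetraspanin of late endosomes, had −0.49 and −0.35. Between the lines with DMSO, where 14.2% of all tested genes were called lower in Toledo and 16.7% higher, 5 of 17 tested tetraspanins were called lower (CD9, CD53, CD82, TSPAN18 and TSPAN33) and 4 higher (TSPAN5, TSPAN7, TSPAN13 and TSPAN31). CD9, a widely expressed tetraspanin, had 12.7 and 11.8 RPKM in SU-DHL-5 and 0 in both DMSO libraries of Toledo. TSPAN13 had 0.502 and 0.743 RPKM for SU-DHL-5 and 22.0 and 27.8 for Toledo, a log2 ratio of 5.11. TSPAN7 was listed at 0 in SU-DHL-5 and had 2.66 and 2.73 RPKM in Toledo. TSPAN18 was listed at 0 in Toledo and had 3.38 and 2.71 RPKM in SU-DHL-5. TSPAN5 had 0.0187 and 0.0173 RPKM for SU-DHL-5 and 0.966 and 1.21 for Toledo.

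CD27 (chromosome 12, 6444885 to 6451718) encodes a receptor of the TNF receptor family that binds CD70 and marks memory B cells. Its libraries had 173.0 and 161.1 RPKM with DMSO and 19.7 and 18.6 with JQ1 in SU-DHL-5. In Toledo there were 0.0428 and 0 RPKM with DMSO and 0.0932 and 0.0939 with JQ1, which is 1 read with DMSO and 4 with JQ1. CD27 was thus abundant in SU-DHL-5, at rank 401 of genes with at least 1 RPKM with DMSO and rank 3052 with JQ1, and at the limit of detection in Toledo. The log2 ratio with JQ1 in SU-DHL-5 was −3.12 (interval from −3.23 to −3.02, 786 and 7197 reads), an 8.70-fold lower level. Of the 9316 tested genes, 23 had a lower ratio. The reads in Toledo gave a log2 ratio of 2.07 with an interval from −1.27 to 7.69, so no difference with JQ1 was detectable there. Between lines with DMSO, 1 read in Toledo stood against 7197 in SU-DHL-5. That ratio of reads was −12.87 on the log2 scale (interval from −18.17 to −10.39). With 0.1 RPKM added it was −10.43 and with 1 RPKM −7.36, and at 0.1 RPKM no tested gene had a lower one. An antisense gene that overlaps CD27, CD27-AS1, was at 0 in every library.

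The axis of CD27 and its ligand CD70 was a list of 7 genes. With JQ1, CD27 itself was the 1 of 7 tested genes called lower in SU-DHL-5, against 6.28% of all tested genes. None of 5 tested genes was called lower in Toledo, against 8.01%. None was called higher in either line, against 1.84% in SU-DHL-5 and 1.93% in Toledo. CD70, the ligand, had 141.5 and 157.6 RPKM with DMSO and 173.7 and 177.8 with JQ1 in SU-DHL-5, and 104.3 and 100.6 with DMSO and 86.3 and 80.4 with JQ1 in Toledo. Its log2 ratios were 0.23 and −0.30, so the RNA of the ligand was abundant in both lines while that of the receptor was abundant in SU-DHL-5 alone. SIVA1, whose product binds the tail of CD27, had −0.12 and −0.47. In DMSO, CD27, TRAF5 and BIRC3 were the 3 called lower in Toledo and none was called higher, against 14.2% and 16.7% of all tested genes. TRAF5, an adaptor of CD27, had a log2 ratio of −1.98 between lines, and BIRC3, an inhibitor of apoptosis and a target of NF-kB, had −1.65.

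CD38 (chromosome 4, 15778298 to 15849083) encodes an enzyme of the cell surface that consumes NAD and is the target of daratumumab. It had 0 and 0.0395 RPKM with DMSO and 0.0406 and 0.0459 with JQ1 in SU-DHL-5, which is 1 and 2 reads. Toledo had 46.0 and 51.4 RPKM with DMSO and 67.5 and 70.7 with JQ1. Among tested members, CD38 in Toledo was the 1 with both JQ1 libraries above both DMSO libraries. Its log2 ratio there was 0.50 (interval from 0.43 to 0.58, 3338 and 2457 reads), a 1.42-fold higher level that was not called, and 90.6% of tested genes had a lower ratio. No fold with JQ1 is given for SU-DHL-5, where both samples were under 3 reads. Between lines with DMSO the reads, 2457 against 1, gave a log2 ratio of 11.21 (interval from 8.73 to 16.51). With 0.1 RPKM added the ratio was 8.67, exceeded by 0.0992% of tested genes, and with 1 RPKM added it was 5.61.

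Surface enzymes of NAD and nucleotides formed a list of 5 genes around CD38. No gene was called with JQ1 in either line, of 0 tested in SU-DHL-5 and 3 in Toledo. In Toledo, 8.01% of all tested genes were called lower with JQ1 and 1.93% higher. CD38 and NT5E were the 2 called higher in Toledo with DMSO, of 2 tested, and none was called lower. For all tested genes these shares were 16.7% and 14.2%. NT5E, which encodes the ectonucleotidase CD73, was listed at 0 in all SU-DHL-5 libraries and had 9.47 and 11.2 RPKM with DMSO and 8.46 and 7.69 with JQ1 in Toledo. ENPP1, another ectoenzyme, was also at 0 in SU-DHL-5 and had 0.669 and 0.803 RPKM with DMSO and 1.00 and 1.07 with JQ1 in Toledo.

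The complement regulators of the cell surface, a list of 5 genes that includes CR2, had no call with JQ1 in SU-DHL-5, where 2 were tested, or in Toledo, where 3 were. With JQ1, all tested genes had shares of 6.28% lower and 1.84% higher for SU-DHL-5. For Toledo they had 8.01% and 1.93%. In DMSO, CD55 and CD59 were the 2 called higher in Toledo, of 3 tested, where 16.7% of all tested genes were called higher. None was called lower, where 14.2% of all tested genes were. CD55, which speeds the decay of complement convertases, was at 0 in all SU-DHL-5 libraries and had 23.1 and 23.8 RPKM with DMSO and 20.9 and 21.6 with JQ1 in Toledo. CD59, which blocks the membrane attack complex, had a log2 ratio between lines of 2.31, and its ratios with JQ1 were 0.47 and 0.53. CD46, a cofactor in the cleavage of complement, had 0.56 and 0.10 with JQ1.

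A broader list of 33 other B-cell surface antigens gave the setting of the 9 genes. With JQ1, 8 of 20 tested genes were called lower in SU-DHL-5 and 10 of 24 in Toledo, against 6.28% and 8.01% of all tested genes. None was called higher, against 1.84% and 1.93%. The lower calls of both lines shared 5 genes, namely CD48, CD84, CD180, FCGR2B and TNFRSF17. The median log2 ratio of the tested genes of the list was −0.68 for SU-DHL-5 and −0.75 for Toledo. Medians over all tested genes were 0.02 and −0.07. CD74 had −0.13 and 0.19. The signaling chains of the B-cell receptor differed, with −0.71 and −0.76 for CD79A and 0.01 and −0.28 for CD79B. TNFRSF17, the receptor BCMA of plasma cells, was called lower in both lines, with −2.36 and −4.55. TNFRSF13B, the receptor TACI, was at 0 in the DMSO libraries of SU-DHL-5 and went from 41.2 and 39.5 RPKM with DMSO to 2.08 and 2.51 with JQ1 in Toledo, a log2 ratio of −4.08. ROR1, an orphan receptor kinase, went from 1.73 and 2.58 RPKM to 0.00933 and 0.0188 in Toledo, and LY9, a receptor of the SLAM family, from 1.35 and 1.30 to 0.125 and 0.173. Both were at 0 in SU-DHL-5. CD24, a small lipid-anchored protein, was called lower in SU-DHL-5 with −1.06 and had −0.27 in Toledo. In DMSO, 5 of 25 tested genes were called lower in Toledo, namely CD53, CD86, CD180, TNFRSF13C and IL4R, and 10 were called higher. The shares of all tested genes were 14.2% lower and 16.7% higher. The plot of antigen lists in both lines shows members and listed genes together.

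**Figure D5:**
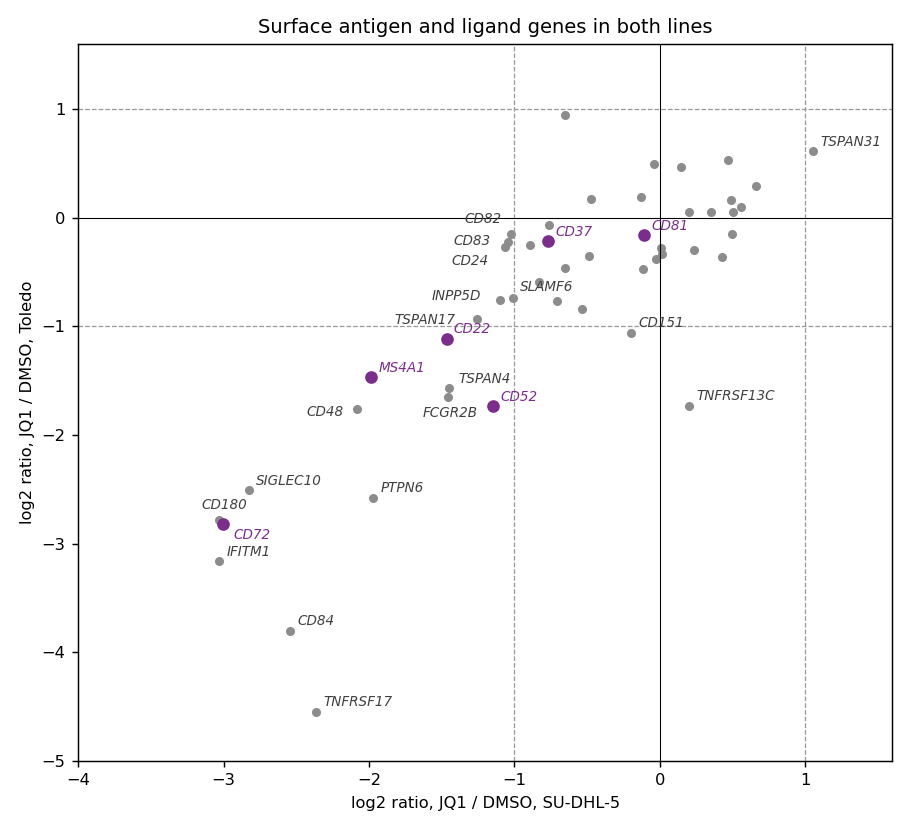
Log2 ratio of RPKM, JQ1 over DMSO, in SU-DHL-5 (horizontal) and Toledo (vertical) for the 50 genes of the surface lists tested in both lines, with 6 members in purple and 44 other genes in grey, names beside members and genes past 2-fold in a line, and dashed lines at 2-fold. CD72 lies at −3.01 and −2.82, near CD180 and IFITM1, while CD81 and CD37 lie within the dashed lines.

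The ratios with JQ1 were set side by side across the lines. Of the 8718 genes tested in both lines, 260 were called lower in both and 66 higher in both, and of 6 members tested in both, MS4A1, CD22, CD52 and CD72 were the 4 called lower in both. The difference between the lines, Toledo minus SU-DHL-5 on the log2 scale, was 0.52 for MS4A1, 0.35 for CD22 and 0.55 for CD37, so that each had the lower ratio in SU-DHL-5. CD52 had a difference of −0.59, with the lower ratio in Toledo. CD72 had 0.18, but with 1 RPKM added the lower ratio was the one in Toledo. For these 5 genes all pairings of libraries in a line lay outside those in the other, while the counting intervals of CD52 and of CD72 overlapped between lines, and the difference itself was not tested. CD81 had −0.05, and its pairings overlapped between lines. Over the 8718 genes, the difference had a median of −0.10 and quartiles of −0.29 and 0.09. For CD27, CD38 and CR2 a comparison of this kind rests on a line with at most 6 reads per sample, and none is made.

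Libraries of a sample differed by a median of 0.11 on the log2 scale in SU-DHL-5 with DMSO, 0.06 in SU-DHL-5 with JQ1, 0.16 in Toledo with DMSO and 0.10 in Toledo with JQ1, without regard to sign. Among members of at least 1 RPKM in the sample, the widest gaps were 0.23 for MS4A1 in SU-DHL-5 with DMSO, 0.16 for CD22 with JQ1, 0.20 for CD22 in Toledo with DMSO and 0.51 for CD52 in Toledo with JQ1. In Toledo with DMSO, the ratio of library 2 to library 1 moved with gene length, with a Spearman correlation of 0.62 over 9467 genes that are not independent of each other. With either of these libraries left out, the members called lower with JQ1 in Toledo were again 4, and those called between lines again 3 lower and 2 higher.

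Genes whose pattern was most like that of a member were sought among the 10243 genes with at least 1 RPKM in a sample, by the largest absolute difference between the centred log2 levels of the 4 samples. For MS4A1 these were MAPKAPK3 (0.04) and C2CD2 (0.12), and for CD22 they were INPP5J (0.12) and STS (0.14). CD37 was nearest to PASK (0.05) and MED25 (0.11), and CD81 to C9orf3 (0.02) and NAGLU (0.03). CD72 had FERMT3 (0.07), which had 4.02 RPKM with DMSO and 0.426 with JQ1 for SU-DHL-5 and 5.58 and 0.700 for Toledo, and TRIM47 (0.25). CD52 was nearest to S1PR2 (0.23), a receptor of germinal center B cells, and to SLC2A5 (0.33). CD38 was nearest to IRF4 (0.14), a factor of plasma cells and activated B cells, which had 0.0115 and 0.0242 RPKM with DMSO and JQ1 for SU-DHL-5 and 48.7 and 58.5 for Toledo, and to MARCKS (0.36). CD27 had no close neighbor, as HOPX (0.79) and SERPINA9 (0.96) were the nearest. With 4 samples, such likeness is a description of levels.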

How the data were processed

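For 8 libraries of 4 samples, the authors provided gene and transcript levels as RPKM, made from trimmed paired reads on GRCh38, with CASAVA 2.0 named in the processing notes. The aligner, the counting and the annotation are not given in the sources used here. Values were averaged over the libraries of each sample (n = 1 per group). Mapped reads and whole reads were recovered from RPKM and gene length (tolerance 0.01, lengths of 100 to 40000 bases) for 14942 of 14944 genes with a value. Where a gene had few reads, its length and its reads may both be underestimated by 1 shared factor. Intervals are Clopper-Pearson at 95%. Genes of at least 1 RPKM in either sample were tested, with 0.1 RPKM added and a 2-fold cutoff, and the call rule was tested on simulated data. The simulated reads held counting error alone, and the changed genes had many reads and changes well above the cutoff. Changes near 2-fold, genes of few reads and other spread between libraries were therefore not covered. Alternatives changed the added RPKM (0.01 or 1), the filter (none or 5 RPKM), the cutoff (1.5-fold, or 2-fold alone), the scaling, the table, the library and the centring by length over 501 genes. Leaving out either library of Toledo in DMSO and taking medians over tested members were chosen after seeing the data. The members and lists were chosen with earlier results of these data known. A gene of the lists is not reported here, and list counts leave it out. Named genes were all members, the 3 most abundant genes of each surface list, at most 5 per surface list called in the same direction with JQ1 in both lines or called between lines, and the 2 most alike for each member of at least 1 RPKM. Genes that make up a count of 5 or fewer, the genes overlapping members and the cell type markers given by name were named after their values were seen. The work ran in Python 3.11.15 with scipy 1.17.1 for intervals, numpy 2.4.6 and pandas 2.3.3 for tables, and matplotlib 3.10.9 for plots.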

Additional observations from a re-analysis of the deposited data

How the results depend on the processing

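With 1 sample in each condition, neither pairing nor leaving out a replicate was possible. The 5 members called lower with JQ1 in SU-DHL-5 kept their call in all 11 alternatives, and MS4A1, CD52 and CD72 kept theirs in Toledo in all 13. CD22 in Toledo was called in 11 of 13, with a count of 3 members when 1 RPKM was added or ratios were centred by length. CD37 (in SU-DHL-5 and between lines) and CD81 (between lines) were called at 1.5-fold alone. The median of all 9 members in SU-DHL-5 was −1.16 when scaled to the median ratio of all genes and −1.12 when centred by length, against −1.15. In Toledo the median, −0.21, ranged from −0.32 (library 1 alone) to −0.08 (centred by length). The median of all 9 between lines in DMSO was 0.061 with 1 RPKM added, against 0.52, and with library 1 of each sample alone 1 member, CD38, was called higher in Toledo, against 2. Both of these medians are the value of CR2, which had at most 3 reads per sample in DMSO. The call lost with library 1 alone is that of MS4A1, whose log2 ratio was then 0.92, short of 2-fold. The cause of the other shifts was not tested. Of 225 alternative values of the 27 member ratios, 184 moved from the main value by less than the counting interval of the reads reaches to that side (or by less than 1 where both samples had at most 3 reads), 41 moved further and 0 changed sign while called. Depth limits CR2 in every sample, CD27 in Toledo and CD38 in SU-DHL-5, which had at most 6 reads each.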
